A study of Mus musculus with 6 samples.

Results

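The genes described here are 10 Wnt ligands of palate epithelium and mesenchyme, Wnt2b, Wnt3, Wnt4, Wnt5a, Wnt5b, Wnt6, Wnt7b, Wnt9b, Wnt10a and Wnt11. They were taken by symbol from count tables that list 23366 genes, and all 10 symbols were found. The tables come from palatal shelves of E14.25 mouse embryos, sequenced as 3 wild type libraries (WT replicates 2, 3 and 4) and 3 libraries of the genotype Kmt2dfl/fl Wnt1-Cre (knockout replicates 1, 2 and 3). In that genotype floxed alleles of Kmt2d, which encodes a histone methyltransferase, are recombined by a Cre under Wnt1 regulatory sequence, active in the neural crest lineage. The labels give no strain, and do not say whether the wild type embryos carried Cre or floxed alleles. The samples are named as biological replicates of shelf pairs, with no word on how many embryos made up each, so p-values measure the spread between these 6 libraries.

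Wnt ligands are secreted glycoproteins that are acylated by the enzyme Porcn, carried to the cell surface by Wls, and bound by Frizzled receptors with co-receptors of the Lrp or Ror type. Some signal through beta-catenin and the TCF/LEF transcription factors, others through routes that change cell polarity and movement. In the palate most ligands are made by the epithelium, which descends from ectoderm and lies over a mesenchyme made mostly by neural crest, while Wnt5a is a ligand of the mesenchyme. Wnt3 and Wnt9b are known for their part in lip and primary palate formation, and Wnt10a for its part in tooth development.

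Gene counts ran from 20785074 to 24916079 read pairs per library in the wild type and from 12721979 to 20203309 in the knockout. Every knockout library was therefore shallower than every wild type library. Rn45s took 35.1% and 30.0% of gene counts in knockout replicates 1 and 3. It took 18.6% in knockout replicate 2 and 16.2% to 20.7% in the wild type. The part of depth in the ligand values was not tested. Knockout replicate 2 stood apart, with 47.5% of its listed pairs outside annotated genes, where the lowest library had 12.3%. Its 6 skeletal muscle markers summed to 11270 CPM (counts relative to the normalised library size), against 246.7 to 583.9 CPM in the other 5 libraries, and Ttn alone made up 10160 CPM of that sum. Myh3 (803.6 CPM, against 59.05 to 192.9 in the others) was also highest there. So were Actc1 (200.9 CPM, against 62.02 to 146) and Tnnt1 (62.9 CPM, against 20.7 to 41.4). Myod1 was slightly above the others (17.1 CPM, against 7.80 to 15.7), and Myog lay within their range (27.6 CPM, against 20.06 to 31.4). The 20 epithelial markers of knockout replicate 2 summed to 652.2 CPM, the lowest of the 6 libraries. Kmt2d, listed as Mll2, ran from 170.6 to 211.1 CPM in the wild type and from 193.5 to 538.6 CPM in the knockout. Its count also takes in exons that Cre need not remove, and so does not check the labels. Values of single libraries are given in the order of replicates 2, 3 and 4 for the wild type and 1, 2 and 3 for the knockout. Some values without knockout replicate 2 are given as well. Where none is given, that library may still move the value.

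No Wnt ligand passed the threshold between the groups, an adjusted p of 0.05 over all genes tested (edgeR quasi-likelihood test with Benjamini-Hochberg adjustment). Of the 10 ligands, 8 were tested, and each of these 8 met the minimum of the filter (0.488 CPM) in 3 of 3 libraries of both groups. Wnt3 and Wnt9b were too low to test. Of the 8, 0 were called lower and 0 higher, where 0.436% and 0.0984% of the 14233 genes tested were. At an unadjusted p under 0.05, 3 of the 8 were lower, Wnt2b, Wnt4 and Wnt10a, against 6.69% of all genes tested. DESeq2 called 1 of the 8 lower, Wnt2b, against 2.28% of genes, and limma voom called 0. The same 3 ligands had all knockout libraries below all wild type libraries, a separation seen in 11.2% of the genes tested downward and 12.3% upward. No ligand was separated upward. In 6 of the 8 the log2 fold change was negative, against 48.5% of all genes, and the median was -0.65 against 0.011 over all genes tested. Without knockout replicate 2 the median of the 8 was -0.35, and 0 were called lower or higher (1.57% and 0.554% of genes), with 3 lower at an unadjusted p under 0.05.

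**Figure D1:**
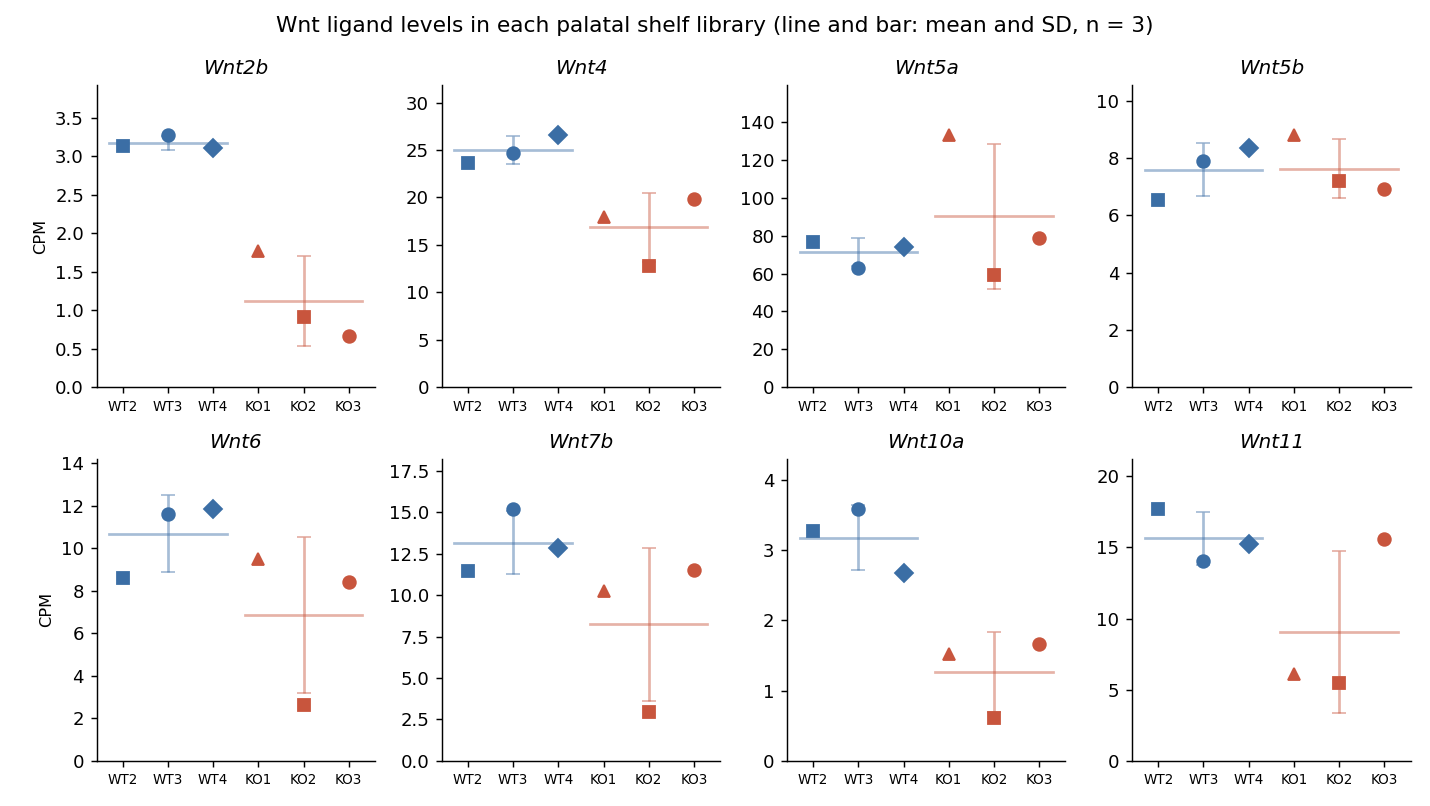
Level of each tested Wnt ligand in CPM (vertical axes, each from 0) in the 3 wild type (WT, blue) and 3 knockout (KO, red) libraries, with the group mean (line) and SD (bar, n = 3). The knockout libraries lie below every wild type library for Wnt2b, Wnt4 and Wnt10a, while knockout replicate 2 alone is far lower for Wnt6 and Wnt7b and knockout replicate 1 alone is high for Wnt5a.

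Wnt2b, a ligand that can act through beta-catenin, had the lowest fitted fold change of the 8. Its levels were 3.13 CPM, 3.27 CPM and 3.10 CPM (wild type) and 1.77 CPM, 0.908 CPM and 0.663 CPM (knockout). The wild type values lay close together and all 3 knockout values below them. The fitted log2 fold change was -1.51 (SE 0.38, 95% interval -2.39 to -0.63, edgeR adjusted p = 0.19), and -1.42 without knockout replicate 2 (edgeR adjusted p = 0.112). In DESeq2 it was -1.52 with an adjusted p = 0.03, while the other alternatives ran up to an adjusted p = 0.554. The wild type counts behind these levels were 88, 73 and 72, and the knockout counts 28, 12 and 12.

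Wnt10a, a ligand of tooth and oral epithelium, was measured at 3.28 CPM, 3.59 CPM and 2.67 CPM (wild type) and 1.52 CPM, 0.605 CPM and 1.66 CPM (knockout). Every knockout library was lower than every wild type library, with knockout replicate 2 the lowest. Its log2 fold change was -1.30 (SE 0.37, 95% interval -2.17 to -0.43, edgeR adjusted p = 0.238) and -1.01 without knockout replicate 2 (edgeR adjusted p = 0.151). Wnt10a lies next to Wnt6 on chromosome 1, on the same strand and with no other protein-coding gene between them in GENCODE M21. Wnt6, an epithelial ligand, was measured at 8.61 CPM, 11.6 CPM and 11.8 CPM (wild type) and 9.49 CPM, 2.65 CPM and 8.40 CPM (knockout). Its groups overlapped, since knockout replicate 1 was above wild type replicate 2. The log2 fold change of Wnt6 was -0.63 (SE 0.41, 95% interval -1.59 to 0.33, edgeR adjusted p = 0.489), and without knockout replicate 2 it was -0.26 (edgeR adjusted p = 0.544).

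Wnt4 is a ligand of epithelia that can signal with or without beta-catenin. In the wild type it had the second highest mean of the 10 per transcript length. Its levels were 23.7 CPM, 24.7 CPM and 26.6 CPM (wild type) and 17.97 CPM, 12.8 CPM and 19.8 CPM (knockout). The groups did not overlap. Wnt4 had a log2 fold change of -0.57 (SE 0.17, 95% interval -0.97 to -0.16, edgeR adjusted p = 0.265), and -0.41 without knockout replicate 2 (edgeR adjusted p = 0.1).

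Wnt7b, an epithelial ligand of the beta-catenin route, was like Wnt6 far lower in 1 knockout library. Its levels were 11.4 CPM, 15.2 CPM and 12.9 CPM (wild type) and 10.3 CPM, 2.95 CPM and 11.5 CPM (knockout). Knockout replicate 2 stood below the other 5 libraries, which lay between 10.3 and 15.2 CPM. The log2 fold change of -0.67 (SE 0.43, 95% interval -1.66 to 0.33, edgeR adjusted p = 0.482) was -0.28 without that library (edgeR adjusted p = 0.444). An exon of AU022754 overlaps Wnt7b on the opposite strand, and that gene was listed with 4 to 35 counts per library against 39 to 339 for Wnt7b.

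Wnt11, a ligand best known for signalling without beta-catenin, divided the knockout libraries. Its levels were 17.7 CPM, 14.03 CPM and 15.2 CPM (wild type) and 6.07 CPM, 5.45 CPM and 15.6 CPM (knockout). Knockout replicate 3 lay within the wild type range and the other 2 knockout libraries far below it. Over all libraries the log2 fold change was -0.78 (SE 0.38, 95% interval -1.68 to 0.11, edgeR adjusted p = 0.388). It was -1.44 without knockout replicate 3 (edgeR adjusted p = 0.0641), and between -0.86 and -0.53 with any of the other 5 libraries left out.

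Wnt5a and its close relative Wnt5b, ligands known mainly for signalling without beta-catenin, were the 2 tested members whose fitted change was not negative. Wnt5a was measured at 76.7 CPM, 63.2 CPM and 74.4 CPM (wild type) and 133.2 CPM, 59.3 CPM and 78.7 CPM (knockout). Knockout replicate 1 was high and the other 2 knockout libraries lay on either side of the wild type. The log2 fold change was 0.34 (SE 0.27, 95% interval -0.30 to 0.98, edgeR adjusted p = 0.568), 0.56 without knockout replicate 2 (edgeR adjusted p = 0.339) and -0.047 without knockout replicate 1 (edgeR adjusted p = 0.885). Wnt5b was measured at 6.55 CPM, 7.89 CPM and 8.35 CPM (wild type) and 8.79 CPM, 7.19 CPM and 6.91 CPM (knockout), and the groups overlapped throughout. Its log2 fold change was 0.0076 (SE 0.19, edgeR adjusted p = 0.989). The 95% interval, -0.43 to 0.44, bounds the change of Wnt5b more closely than that of the other 7 ligands except Wnt4. The sign of the Wnt5b value changed between size factors.

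**Figure D2:**
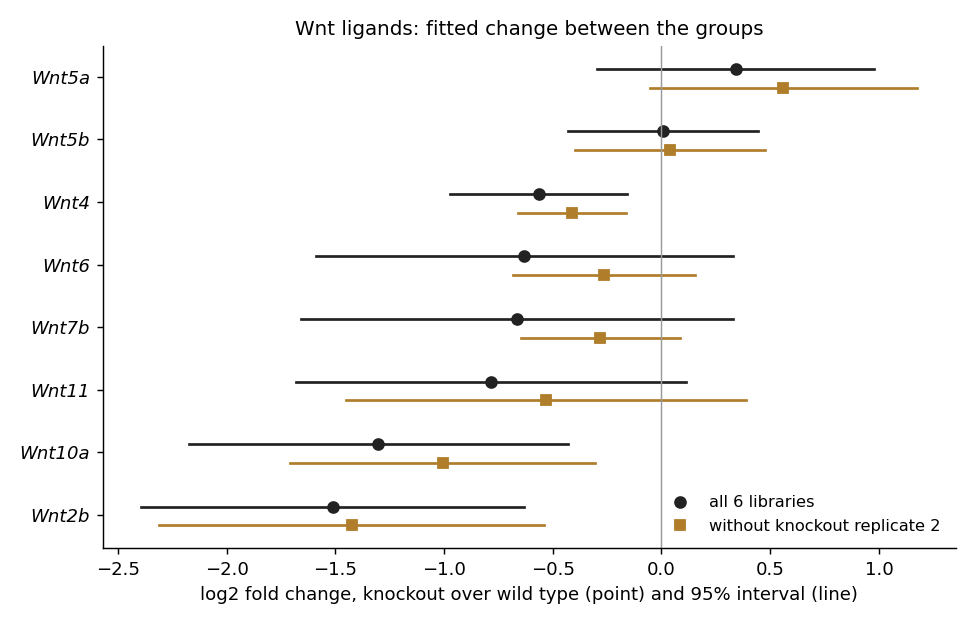
Fitted log2 fold change (horizontal axis, knockout over wild type) of the 8 tested Wnt ligands with its 95% interval, from all 6 libraries (black) and without knockout replicate 2 (brown). The intervals of Wnt2b, Wnt10a and Wnt4 lie below 0 in both fits before adjustment for the number of genes, and leaving out knockout replicate 2 brings Wnt6 and Wnt7b from -0.63 and -0.67 to -0.26 and -0.28.

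Wnt3 and Wnt9b were near the limit of detection. They are neighbours on chromosome 11, in opposite orientation and with no other protein-coding gene between them in GENCODE M21. Wnt3 had 6, 0 and 7 counts (wild type) and 2, 0 and 6 counts (knockout). Wnt9b had 2, 3 and 3 counts (wild type) and 7, 1 and 5 counts (knockout). In these libraries 3 counts, the level that a count of 0 still allows, correspond to 0.107 to 0.227 CPM. A difference between the groups was not detectable at this depth for either gene, and these limits cover counting error only.

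The upstream sequences of Wnt2b, Wnt4, Wnt11 and Wnt5b are shown because these ligands span the patterns above: separated groups for the first 2, divided knockout libraries for Wnt11, and overlapping groups for Wnt5b. Each is the 250 bases before the most upstream RefSeq start of build GRCm38.p6, written in the direction of transcription. The counts were made on another build, mm9, so the positions are those of the sequence table only. Capitals mark the GC box letters (GGGCGG), the CCAAT box letters (CCAAT), the TATA box letters (TATAAA) and core letters recognised by TCF/LEF factors (CTTTGA as one form, CTTTGT as the other), on either strand. Neighbouring matches may overlap.
Wnt2b (chr3:104961710-104961959, minus strand): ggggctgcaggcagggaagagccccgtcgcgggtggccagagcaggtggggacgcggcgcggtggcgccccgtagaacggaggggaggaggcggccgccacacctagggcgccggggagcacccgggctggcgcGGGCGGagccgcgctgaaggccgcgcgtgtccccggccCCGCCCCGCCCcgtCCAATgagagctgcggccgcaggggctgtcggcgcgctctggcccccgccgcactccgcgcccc
Wnt4 (chr4:137277385-137277634, plus strand): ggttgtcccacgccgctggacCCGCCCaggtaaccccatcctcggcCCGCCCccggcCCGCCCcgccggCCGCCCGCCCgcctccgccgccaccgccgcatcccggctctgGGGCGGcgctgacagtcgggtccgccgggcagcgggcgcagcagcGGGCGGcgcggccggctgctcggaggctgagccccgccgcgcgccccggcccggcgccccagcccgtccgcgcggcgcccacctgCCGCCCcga
Wnt11 (chr7:98834862-98835111, plus strand): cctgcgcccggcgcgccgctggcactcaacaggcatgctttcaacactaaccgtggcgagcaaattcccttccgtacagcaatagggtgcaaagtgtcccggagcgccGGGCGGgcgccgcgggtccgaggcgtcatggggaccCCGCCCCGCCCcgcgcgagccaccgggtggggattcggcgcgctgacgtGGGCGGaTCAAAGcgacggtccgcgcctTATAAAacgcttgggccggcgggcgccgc
Wnt5b (chr6:119544348-119544597, minus strand): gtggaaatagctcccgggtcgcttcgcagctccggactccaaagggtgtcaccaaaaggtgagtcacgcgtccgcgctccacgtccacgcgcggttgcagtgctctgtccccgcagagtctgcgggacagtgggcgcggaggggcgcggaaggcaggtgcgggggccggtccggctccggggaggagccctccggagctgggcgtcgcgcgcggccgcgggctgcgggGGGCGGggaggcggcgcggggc
Of the 10 ligands, 7 had windows in the table and Wnt5a, Wnt7b and Wnt10a had none. The most upstream windows of the 7 were rich in G and C, at 80.8% for Wnt2b, 85.2% for Wnt4, 79.6% for Wnt6, 75.2% for Wnt5b, 72% for Wnt9b, 70.8% for Wnt11 and 68% for Wnt3, where the median of all 32841 windows was 52.4%. They held 22 to 44 CpG dinucleotides each, against a median of 6. The GC box letters occurred in all 7, from 1 match in Wnt5b to 8 in Wnt4, and in 32.7% of all windows. Either form of the TCF/LEF core letters occurred in 27.6% of all windows and, among these 7, in that of Wnt11, as 1 match on the other strand, beside the last GC box. The TATA box letters, present in 12.4% of all windows, also occurred among the 7 in that of Wnt11 alone. The CCAAT box letters occurred in 33.9% of all windows and in those of Wnt2b, Wnt3 and Wnt9b. Such matches describe letters, not binding. These letters were not tested against the changes between the groups. Wnt5b had 3 starts in the sequence table and Wnt11 had 2. The further windows of Wnt5b held 53.2% and 55.6% G and C, the latter with 1 CTTTGA match. That of Wnt11 held 56.8% and no marked letters. The values over all windows take in every listed start of a gene.

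Levels of different ligands were compared as CPM per kilobase of the longest GENCODE M21 transcript. In the wild type Wnt5a was highest, at 9.01 to 10.9 CPM per kb, above Wnt4 at 5.64 to 6.33. Wnt6 (4.16 to 5.72), Wnt11 (4.06 to 5.13), Wnt7b (3.36 to 4.47) and Wnt5b (2.76 to 3.52 CPM per kb) followed, and each of these overlapped with its neighbour in the order, Wnt6 with Wnt4 included. Wnt10a, at 1.08 to 1.45 CPM per kb, and Wnt2b, at 0.934 to 0.986, were lower and did not overlap with each other. Wnt3 and Wnt9b stood below 0.1 CPM per kb in every wild type library. In the knockout Wnt5a remained highest in each library, at 8.46 to 19.01 CPM per kb, and Wnt4 stood at 3.05 to 4.73. Wnt5b, sixth in the wild type, had a higher mean (3.22 ± 0.43 CPM per kb, SD, n = 3) than Wnt11 (2.62 ± 1.65) and Wnt7b (2.42 ± 1.36) in the knockout, with ranges that overlapped.

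**Figure D3:**
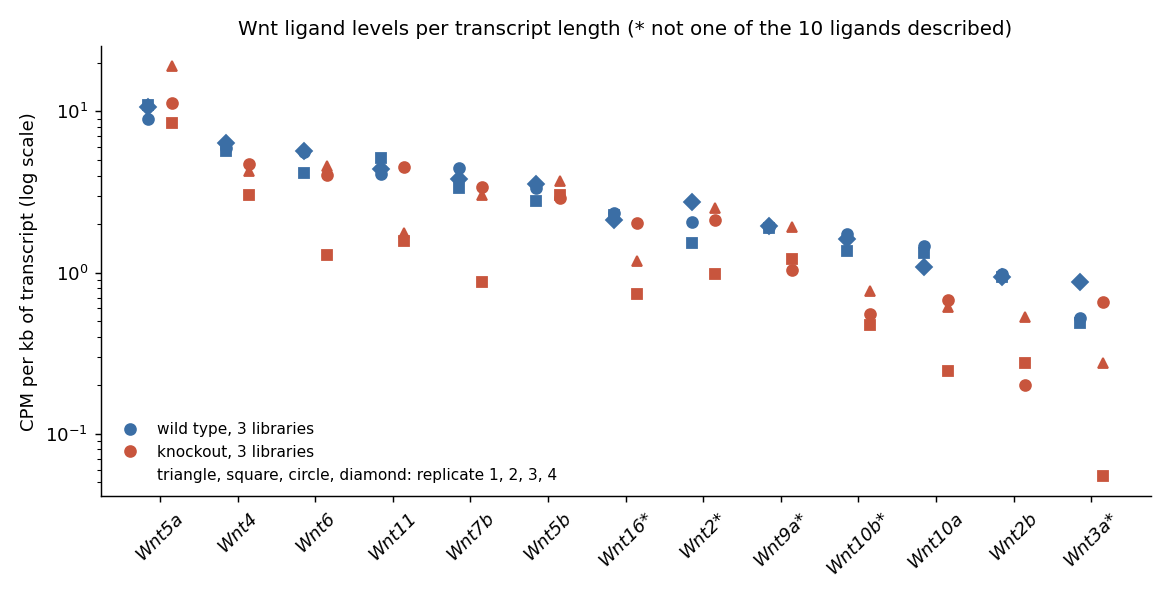
Level per transcript length (vertical axis, CPM per kb, log scale) of the 13 Wnt ligand genes tested, in order of the wild type mean, in wild type (blue) and knockout (red) libraries. Asterisks mark 5 ligands outside the 10, and the red square, knockout replicate 2, is the lowest of the 6 for most ligands.

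Of the 20 epithelial markers, such as Epcam and Cdh1, 20 had a negative log2 fold change with a median of -0.61, and 13 had separated groups. None was called by edgeR, 11 were lower at an unadjusted p under 0.05, DESeq2 called 5 lower and voom 0. Without knockout replicate 2, edgeR called 4 of the 20 lower (Cdh1, Krt15, Krt18 and Krt19) and the median of the 20 was -0.38. Their summed level was 1231 to 1475 CPM in the wild type and 652.2 to 1134 CPM in the knockout, and no marker was at 0 in all libraries. Over the 6 libraries the epithelial sum correlated with Wnt4, Wnt6, Wnt7b and Wnt10a at r = 0.926 to 0.982. With Wnt2b and Wnt11 it correlated at 0.702 and 0.789, and with Wnt5a and Wnt5b at 0.136 and 0.246. The sum of the mesenchymal markers given below correlated with Wnt4, Wnt6, Wnt7b and Wnt10a at 0.640 to 0.796. With Wnt2b, Wnt11, Wnt5a and Wnt5b it correlated at 0.777, 0.501, 0.327 and -0.026. Wnt2b and Wnt5a thus had the higher value with the mesenchymal sum. These values describe libraries that share 2 groups. The part of the lower epithelial sum in the ligand values was not tested. In whole tissue fewer cells of a type and less RNA per cell cannot be told apart. The 13 mesenchymal markers had a median log2 fold change of -0.12. They summed to 5870 to 6783 CPM in the wild type and 5164 to 6084 CPM in the knockout. Col3a1 and Col1a2, with wild type means of 2509 and 2144 CPM, made up most of that sum, where Pdgfra averaged 411.6 and Osr2 60.8 CPM. Groups were separated downward for 2 of the 13, Col1a2 (-0.43) and Prrx2 (-0.79), and upward for 2, Prrx1 (0.44) and Osr1 (0.55). Of all genes tested, 11.2% and 12.3% were so separated. None of the 13 was called by edgeR (2 lower and 2 higher at an unadjusted p under 0.05, 1 lower in DESeq2, 0 in voom). Without knockout replicate 2 edgeR called Prrx2 lower (-0.61, edgeR adjusted p = 0.0103).

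Set against the summed epithelial markers, 4 ligands overlapped between the groups. Wnt4 stood at 1.92, 1.76 and 1.80 CPM per 100 CPM of epithelial markers (wild type) and at 1.69, 1.96 and 1.75 (knockout), and the groups overlapped. The mean log2 difference of Wnt4 was -0.024 (two-sided exact permutation test, p = 0.7). Wnt6, Wnt7b and Wnt11 overlapped as well, with exact permutation p of 0.7, 0.7 and 0.4. Wnt2b stayed lower, at 0.210 to 0.254 in the wild type and 0.0585 to 0.167 in the knockout, and so did Wnt10a, at 0.181 to 0.266 and 0.0928 to 0.146. Wnt5a and Wnt5b were higher on this scale in every knockout library, Wnt5a at 4.50 to 6.23 in the wild type and 6.94 to 12.5 in the knockout, and Wnt5b at 0.532 to 0.566 and 0.609 to 1.10. These 4 gave p = 0.1 in the two-sided exact permutation test, the smallest that 3 against 3 libraries allow, among 8 comparisons made. The epithelial sum was itself lower in every knockout library (652.2 to 1134 CPM, against 1231 to 1475 CPM in the wild type). A gene of unchanged CPM therefore tends to come out higher on this scale. Wnt5b averaged 7.60 CPM in the wild type and 7.63 CPM in the knockout. The share of all genes separated on this scale was not computed. Set against the mesenchymal markers instead, Wnt2b and Wnt10a were again lower in every knockout library (exact permutation p = 0.1 for both), and the groups of the other 6 overlapped. Col3a1 and Col1a2 made up most of the mesenchymal sum, so that scale followed mainly these 2 genes. On that scale Wnt4 stood at 0.349 to 0.453 in the wild type and 0.248 to 0.361 in the knockout (exact permutation p = 0.2), and Wnt5a, a ligand of mesenchyme, at 1.04 to 1.27 and 1.15 to 2.19 CPM per 100 CPM (exact permutation p = 0.2). Wnt5b stood there at 0.0966 to 0.142 and 0.126 to 0.145 (exact permutation p = 0.6).

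**Figure D4:**
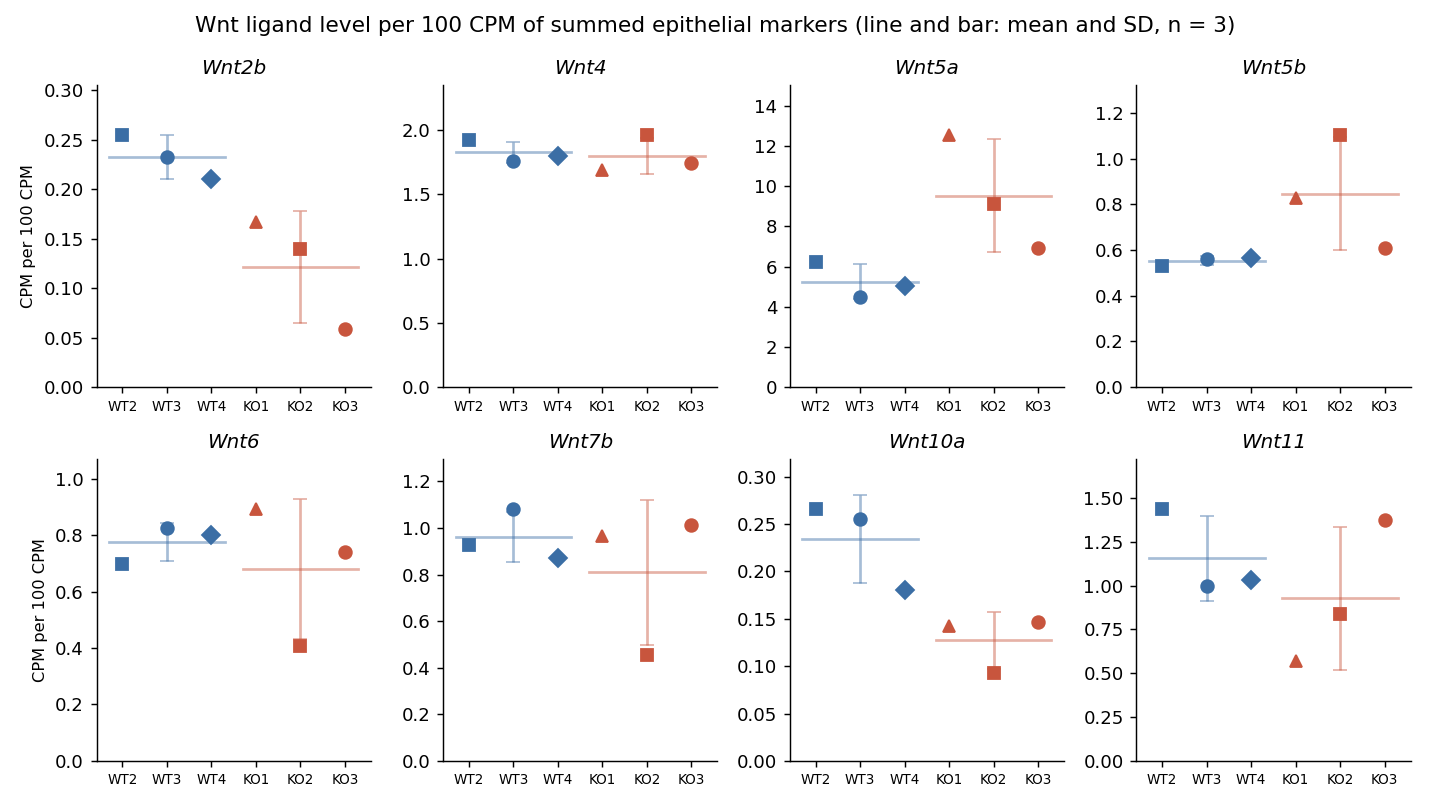
Level of each tested Wnt ligand per 100 CPM of the summed epithelial markers (vertical axes, each from 0) in the 3 wild type (blue) and 3 knockout (red) libraries, with group mean and SD (n = 3). Wnt4 lies between 1.69 and 1.96 in all 6 libraries, Wnt2b and Wnt10a are lower in each knockout library, and Wnt5a and Wnt5b higher. The marker sum itself is lower in every knockout library, which raises a gene of unchanged CPM on this scale.

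Other cell types were read from their own marker lists, where edgeR called Bpifa1, of the nasal and airway list, lower and no other gene. DESeq2 also called 1 gene of the tooth and oral list lower and 2 higher, and 1 macrophage gene lower. Without knockout replicate 2, edgeR called 2 genes of the tooth and oral list, Shh lower (-1.05, edgeR adjusted p = 0.022) and Lhx8 higher (0.63, edgeR adjusted p = 0.044). It also called the macrophage gene Mrc1 lower (-0.96, edgeR adjusted p = 0.011). The 7 nasal and airway markers summed to 6.93 to 11.9 CPM in the wild type and 1.74 to 4.24 CPM in the knockout, and the 6 tooth and oral markers to 346.8 to 411.6 and 420.0 to 444.7 CPM. The tooth and oral list shares Barx1 with the mesenchymal list, and 3 of its 6 log2 fold changes were negative. Its sum is therefore no measure of epithelial placodes. Endothelial markers summed to 257.1 to 283.9 and 202.7 to 233.3 CPM and macrophage markers to 51.4 to 58.7 and 34.9 to 40.4 CPM. Neuron and glia markers (95.7 to 150.9 and 67.7 to 146.9 CPM) and erythroid markers (13.1 to 22.8 and 4.54 to 24.1 CPM, with 1 of 4 at 0 throughout) overlapped between the groups. Their part in the ligand values was not tested.

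Of the 9 other Wnt ligand genes, 5 were tested. With all 6 libraries all 5 had a negative log2 fold change, with a median of -0.75. Without knockout replicate 2 the median was -0.40, and the log2 fold change of Wnt2 was 0.14. With all libraries none of the 5 was called (edgeR; 1 lower at an unadjusted p under 0.05, 1 lower in DESeq2, 0 in voom). The smallest p was that of Wnt10b, a ligand of epithelial placodes, at 3.67, 4.71 and 4.35 CPM (wild type) and 2.09, 1.29 and 1.49 CPM (knockout). All its knockout values were below its wild type values, with a log2 fold change of -1.38 (SE 0.28, edgeR adjusted p = 0.111, and 0.00371 in DESeq2). Wnt10b is a neighbour of Wnt1 on chromosome 15. Wnt1, whose regulatory sequence drives the Cre, had 0 counts in 5 libraries and 1 count in knockout replicate 2.

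The genes of ligand acylation, export and inactivation had a median log2 fold change near that of all genes tested. Of these 8 genes, 0 were called (edgeR; 1 lower at an unadjusted p under 0.05, 0 in DESeq2 and voom), and the median was 0.049. The groups were separated upward in 1 of the 8, Porcn, and downward in 2, where 12.3% and 11.2% of genes tested were. Wls, the carrier, and Porcn, the acyltransferase, were chosen for naming after their values were seen, at 142.9 ± 4.796 and 149.4 ± 9.48 CPM for Wls and 5.61 ± 0.066 and 7.56 ± 1.56 CPM for Porcn (SD, n = 3, wild type first). The log2 fold change of Porcn was 0.43 (edgeR adjusted p = 0.378). The smallest p was that of Notum, an enzyme that removes the lipid from Wnt proteins and is itself a target of the pathway, at 1.91 ± 0.39 and 0.869 ± 0.44 CPM (SD, n = 3; edgeR adjusted p = 0.33).

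With all 6 libraries, edgeR made no call among receptors or in the relay to the nucleus. Of 16 receptors and co-receptors, 0 were called (edgeR; 3 lower at an unadjusted p under 0.05, 2 lower in DESeq2, 0 in voom), with a median log2 fold change of -0.12. Fzd10, a Frizzled receptor, had the smallest p, at 18.2 ± 2.64 CPM in the wild type and 7.86 ± 3.62 CPM in the knockout (SD, n = 3; edgeR adjusted p = 0.203). Without knockout replicate 2, 1 receptor gene was called lower, Ptk7, a pseudokinase co-receptor, at -0.37 (edgeR adjusted p = 0.0321, and 0.231 with all libraries). Of 9 planar polarity genes, 0 were called (1 lower at an unadjusted p under 0.05, 1 lower in DESeq2, 0 in voom), with a median of -0.051. Celsr1, a cadherin of that system, had a log2 fold change of -0.74 (edgeR adjusted p = 0.177), and it was called lower, at -0.59, without knockout replicate 2 (edgeR adjusted p = 0.0346). Of 17 relay genes, 0 were called (2 lower and 2 higher at an unadjusted p under 0.05, 1 lower and 1 higher in DESeq2, 0 in voom), with a median of 0.12. The smallest p was that of Bcl9l, a beta-catenin co-activator, at 98.7 ± 6.16 and 72.9 ± 7.10 CPM (SD, n = 3; edgeR adjusted p = 0.191).

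Feedback targets, genes that Wnt signalling itself induces, had 1 of 13 called lower and 0 higher (0.436% and 0.0984% of all genes tested). Their median log2 fold change was -0.70 with all libraries (-0.52 without knockout replicate 2). At an unadjusted edgeR p under 0.05, 5 were lower and 1 higher. Of all genes 6.69% were lower at that level, and 2021 of 14233 passed it in either direction. DESeq2 called 2 lower and 1 higher (2.28% of genes lower), and voom 1 and 0. These shares apply to the other pathway lists too. Tcf7 and Lef1 are also counted among the relay genes, and Notum among the genes of ligand acylation, export and inactivation. The feedback target called by edgeR was Nkd1, an intracellular antagonist, at 30.2, 27.96 and 24.3 CPM (wild type) and 11.9, 12.5 and 15.1 CPM (knockout) (log2 fold change -1.06, edgeR adjusted p = 0.0391). Nkd1 was not called when any library other than knockout replicate 2 was left out (edgeR adjusted p = 0.0641 to 0.235). Axin2 and Lef1, further targets chosen for naming after their values were seen, had log2 fold changes of -0.17 (edgeR adjusted p = 0.49) and 0.74 (edgeR adjusted p = 0.217, and 0.0461 in DESeq2). Of 17 secreted antagonists and agonists, 14 were tested and 0 called (edgeR; 5 lower at an unadjusted p under 0.05, 2 lower in DESeq2, 0 in voom), with a median of -0.36. Sfrp1, a secreted Wnt-binding antagonist, had the smallest p, at 224.1 ± 10.4 and 134.0 ± 21.97 CPM (SD, n = 3; edgeR adjusted p = 0.0846, and 0.00559 without knockout replicate 2). Without that library 2 of the 14 were called lower, Sfrp1 and the Wnt-binding antagonist Wif1, which had a log2 fold change of -0.79 with all libraries (edgeR adjusted p = 0.323) and -1.20 without it (edgeR adjusted p = 0.0081).

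**Figure D5:**
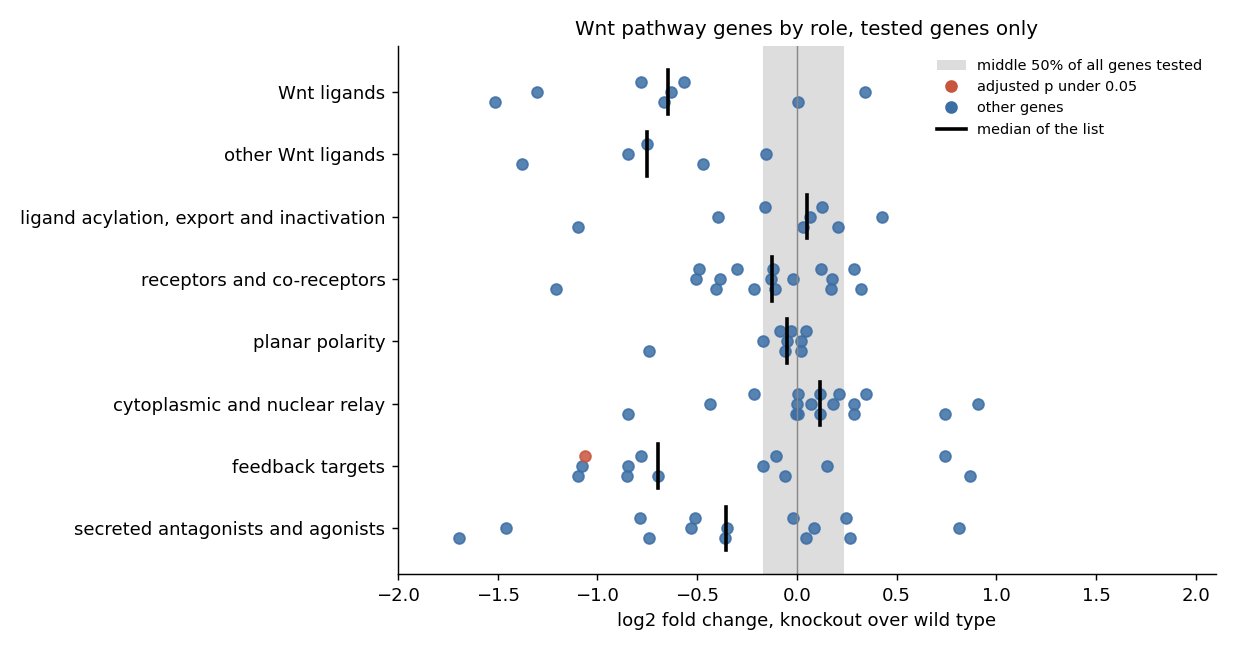
Log2 fold change (horizontal axis, knockout over wild type) of each tested gene of the Wnt pathway by role (rows), with the list median (black bar) and the middle 50% of all genes tested (grey). Nkd1 (red) is the gene past the threshold, and the list medians run from -0.75 for the other Wnt ligands to 0.12 for the relay genes, with the 8 ligands at -0.65 and the secreted antagonists and agonists at -0.36. The grey band is the spread of single genes and is no yardstick for a median.

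Genes whose levels followed each ligand were named by the highest Pearson correlation of log2 CPM over the 6 libraries among 10645 named genes with at least 5 CPM on average. They were Crispld2 for Wnt2b (r = 0.996), Rassf3 for Wnt4 (r = 0.998), Lphn2 for Wnt5a (r = 0.983), Smim11 for Wnt5b (r = 0.985), B3gnt1 for Wnt6 (r = 0.998), Fxyd3 for Wnt7b (r = 0.999), Prrx2 for Wnt10a (r = 0.998) and Serp1 for Wnt11 (r = 0.999). These values describe likeness over 6 libraries that share 2 groups and their depth, and with so many candidates high values are common.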

How the data were processed

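RNA was taken from palatal shelves of 6 samples and made into libraries with a stranded mRNA kit, read as 25 bp pairs, per the labels' protocols. Each library has its own table of raw counts per gene symbol, as the authors deposited it. The submitters' processing notes name TopHat2, SAMtools and HTSeq, with mm9 as the build. Their versions, annotation and strand setting were not given in the sources used here, so genes overlapping on opposite strands could share counts. The 5 category lines of each file, 33.6% to 65.8% of its total, stayed out of library sizes and tests.

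Counts were filtered with filterByExpr (14233 genes kept), normalised by TMM (a trimmed mean of log ratios) and tested with edgeR 4.0.16 in R 4.3.3 (quasi-likelihood, robust, no covariate), with Benjamini-Hochberg adjustment over all genes at 0.05. A negative log2 fold change means lower in the knockout. The code of the test was tried on simulated data first. Those data had the same spread in both groups, unlike these libraries, so the trial does not measure the power here. Within each group, no 2 libraries were alike to within sampling noise (chi-square per degree of freedom 11.5 to 162.6). Repeat libraries of the same RNA can also differ by more than that noise, so this check cannot exclude them. The libraries were taken as biological replicates because the labels name them so. Alternatives were other size factors, DESeq2 1.42.0, limma 3.58.1 voom, the legacy edgeR method, 2 other filters, each library left out, the replicate number as a block, removal of GC and length trends, and leaving out Rn45s and Lars2. The 10 ligands and the gene lists were chosen with earlier results of these data known. All 10 ligands were named. For other pathway lists the text names up to 4 genes that passed the threshold, the gene with the smallest p where none did, and Wnt1. Sequences are from RefSeq tables of GRCm38.p6. Of the 23366 symbols, 98.5% matched GENCODE M21 for length and GC content.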

Additional observations from a re-analysis of the deposited data

How the results depend on the processing

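The median log2 fold change of the 8 tested ligands was negative under all 16 alternatives, from -0.90 with the replicate block to -0.35 without knockout replicate 2, and from -0.89 to -0.35 with single libraries left out. Its value of -0.65 became -0.51 with GC and length trends removed. The count of ligands called lower was 0 in every alternative except DESeq2, where it was 1 (Wnt2b), and 0 were called higher in any. The counts over all genes, 62 lower and 14 higher, became 325 and 161 in DESeq2, 196 and 105 with the replicate block, and 0 to 227 lower and 0 to 80 higher with single libraries left out. Without wild type replicate 2 or 3, where the count was 0 in edgeR, 1103 and 1117 genes had an unadjusted p under 0.05. Without the filter 94 genes were called lower, voom called 9 higher, and removal of GC and length trends gave 22 higher. The cause of these shifts was not tested. The log2 fold change of Wnt5b, 0.0076 with all libraries, turned negative with median of ratios factors (-3.6e-04), upper quartile factors (-0.0053), no filter (-0.023), the replicate block (-0.030) and without Rn45s and Lars2 (-0.018), and lay between -0.11 and 0.080 when 1 library was left out. That of Wnt5a turned negative with the replicate block (-0.026) and without knockout replicate 1 (-0.047), and lay between -0.047 and 0.56 when 1 library was left out. The difference of Wnt4 relative to Cdh1 alone was 0.16 rather than -0.024. The groups share only replicate numbers 2 and 3, whose libraries deviated together at r = 0.239 and -0.153 across genes, so the numbers were not taken to pair the samples. The depth limits Wnt3 and Wnt9b, whose fitted log2 fold changes without a filter had standard errors of 1.11 and 0.80.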

Other observations

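Of the summed level of the 10 ligands per transcript length, Wnt5a took 31.8%, 25.9% and 29.1% (wild type replicates 2, 3, 4) against 50.5%, 45% and 35.3% (knockout replicates 1, 2, 3), so that the groups did not overlap. Wnt4 took 16.4% to 17.4% in the wild type and 11.4% to 16.2% in the knockout, and Wnt10a 2.96% to 4.17% and 1.30% to 2.11%. The share of Wnt5b was 8.04% to 9.65% in the wild type and 9.14% to 16.1% in the knockout, with overlap. Shares sum to a whole, so that a rise of one share lowers the others, and no test was run on them. The summed CPM of the 10 ligands was 143.6 to 155.4 (wild type) and 189.7, 91.95 and 143.8 (knockout), and without Wnt5a it was 74.6 to 81.0 and 56.4, 32.6 and 65.1.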
